A study of Canis lupus familiaris with 10 samples.

Results

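The immune checkpoint receptors and ligands measured here were PDCD1, CTLA4, LAG3, HAVCR2 and TIGIT (receptors) and CD274 and PDCD1LG2 (ligands). They were chosen by name, and all 7 were present among the 800 genes of the nCounter Canine IO Panel, a hybridisation assay in which barcoded probes are counted without amplification. The samples were formalin-fixed, paraffin-embedded (FFPE) canine cutaneous histiocytomas (CCH), which are benign growths of the Langerhans cell lineage in dog skin that regress on their own. Early CCH (group 1 of the Cockerell and Slauson scheme) comprised 5 tumours of dogs aged 0.5 to 5 years, with the age of 1 dog not stated, and late CCH (group 3, the stage rich in lymphocytes) comprised 5 tumours of dogs aged 1.5 to 9 years. The dogs were of various breeds. Both sexes were present in each stage, with 3 males, 1 female and 1 dog of unstated sex among the early tumours and 4 males and 1 female among the late tumours. Each tumour was a single bulk RNA sample of a stage assigned by histology, so that a regressing tumour was not followed over time.

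Checkpoint receptors are inhibitory molecules on lymphocytes and some myeloid cells that dampen a response once their ligands are bound. PD-1, encoded by PDCD1, is induced on activated T cells and binds PD-L1 (CD274) and PD-L2 (PDCD1LG2), which antigen-presenting cells and tumour cells raise in response to interferon gamma. CTLA-4 competes with CD28 for the ligands CD80 and CD86, LAG-3 binds MHC class II molecules, TIGIT binds the poliovirus receptor PVR, and TIM-3 (HAVCR2) is carried by T cells and also by dendritic cells and macrophages. In skin, Langerhans cells present antigen to T cells, so that both sides of these pairs can be present in the same tissue. CD274 and PDCD1LG2 are neighbours on the same dog chromosome, with 0 protein-coding genes between them in RefSeq genes of the assembly UU_Cfam_GSD_1.0.

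The stages differed in technical measures before any gene was compared. Recovered barcode counts summed to between 484696 and 823763 in early and between 945399 and 1253083 in late CCH, and the ratio of the strongest positive controls was 2.09 to 2.17 and 2.72 to 2.84. DV200, the percentage of long RNA fragments, was 64.5 to 71.2 in early and 71.2 to 75.8 in late CCH. According to the study's sample list, the early tumours had been run on a different cartridge from the late tumours, so that cartridge and stage cannot be told apart. Background, the mean plus 2 SD of the 8 negative probes, was 21.8 to 38.2 normalized counts in early and 19.2 to 26.9 in late CCH.

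CD3E, a chain of the T cell receptor complex and the reference for T cell signal, placed the early tumours far apart. It measured 42.3, 716, 3402, 2090.4 and 275 normalized counts in early tumours 1 to 5 and 6134, 5024, 3853, 6011 and 5159.9 in late tumours 1 to 5. The stages did not overlap, but early 3 came close to late 3, and the early tumours spanned a fold range of 80.4 against 1.59 in late CCH. On a log scale early 1 lay furthest from the other early tumours. Early 3 and early 4 were the early tumours nearest to late CCH, and the results without this pair are given as well. The choice of the pair was made on CD3E after the values were seen.

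In CCH early versus late, 5 of the 7 checkpoint genes were lower in early CCH: TIGIT, PDCD1, PDCD1LG2, LAG3 and CD274. Their log2 fold changes, on the scale of log2(normalized count + 1) with negative values for a lower level in early CCH, ran from -2.35 to -1.60, and each passed a Benjamini-Hochberg (BH) adjusted p of 0.05 over 761 tested genes in limma. At that threshold 27.3% of all tested genes were higher in late CCH. Of the members, 0 were higher in early CCH, against 8.41% of the tested genes. These panel shares hold under the authors' scaling and turned under others, to 19.8% higher in late and 25.5% higher in early CCH with geometric mean scaling and to 18.9% and 23.7% with quantile scaling, where the same count of 5 members was higher in late and 1, HAVCR2, higher in early CCH. Under a stricter criterion, a 2-fold or larger change with a p-value adjusted by Benjamini and Yekutieli (BY) not above 0.05, 2 of 7 members passed, LAG3 and PDCD1LG2, against 11.2% of all tested genes. The levels of the stages did not overlap, with every late tumour higher, for 4 of 7 members, against 19.2% of the tested genes. The median log2 fold change was -1.85 over the 7 members and -0.18 over all tested genes. CTLA4 and HAVCR2 did not pass either threshold.

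**Figure D1:**
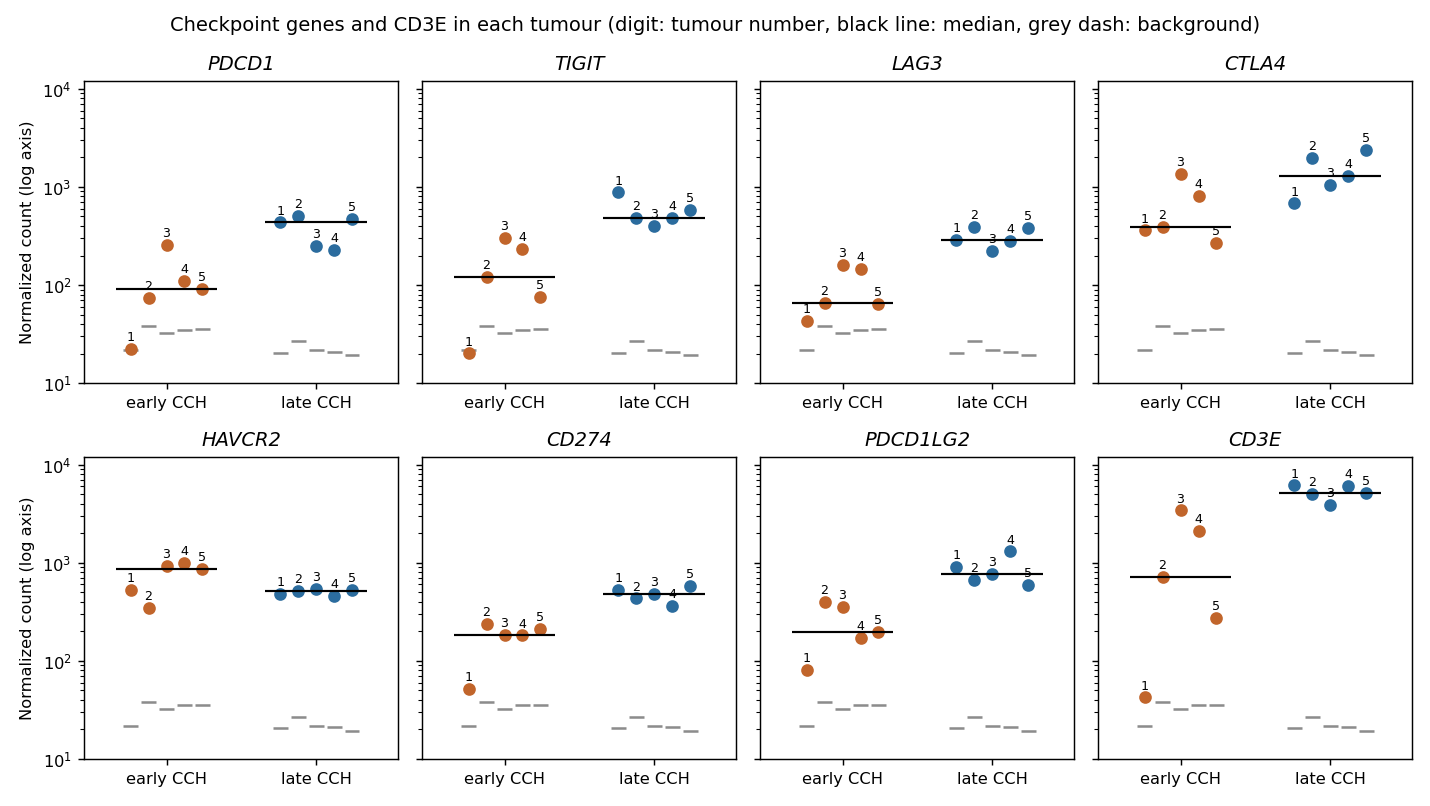
Normalized counts (log axis) of the 7 checkpoint genes and of CD3E in each of the 5 early (orange) and 5 late (blue) CCH tumours, with the tumour number above each point, the stage median as a black line and the background of each tumour as a grey dash. TIGIT in early 1 (20.1) lies just under its background of 21.8, early 3 and early 4 are the highest early tumours for CD3E, PDCD1, TIGIT, LAG3 and CTLA4, and HAVCR2 differs from the others in that 3 early tumours lie above all late ones.

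PDCD1, the gene of PD-1, was measured at 22.2, 74.6, 255, 110.4 and 90.95 normalized counts in early tumours 1 to 5. In late tumours 1 to 5 it was measured at 435, 504, 250.4, 228 and 469. Early 1 was the lowest, barely above its background of 21.8 and resting on 21 recovered counts, early 3 was the highest early tumour, late 3 and late 4 were the lowest late tumours, and early 3 exceeded both of them. Early CCH had a mean of 111 ± 87.2 and late CCH one of 377 ± 129 (SD, n = 5 each). The log2 fold change was -2.07 (SE 0.55, 95% interval -3.29 to -0.85), which passed BH (adjusted p = 0.0160) and missed BY (adjusted p = 0.116) in limma.

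CD274, the gene of the ligand PD-L1, was measured at 51.8, 237, 184, 181 and 212 in early tumours 1 to 5 and at 525, 432, 485, 362 and 579 in late tumours 1 to 5. Early 1 lay far below the other early tumours, which were close to each other, and every early tumour was below every late one. Early 3 and early 4, which were high for the T cell gene CD3E, were in the middle of the early range for this gene. The stage means were 173 ± 71.7 and 477 ± 83.5 (SD, n = 5 each), with a log2 fold change of -1.60 (SE 0.38, 95% interval -2.45 to -0.75). The difference passed BH (adjusted p = 0.0106) and missed BY (adjusted p = 0.0768) in limma.

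PDCD1LG2, the gene of the second PD-1 ligand PD-L2, was measured at 80.4, 399, 356, 169.7 and 197 in early tumours 1 to 5. In late tumours 1 to 5 it was measured at 905, 668, 772, 1300.15 and 594. The stages did not overlap. Early 1 was again the lowest, early 2 and early 3 the highest of the early tumours, and late 4 stood above the other late tumours. The log2 fold change of -1.97 (SE 0.42, 95% interval -2.90 to -1.04) passed both BH (adjusted p = 0.00605) and BY (adjusted p = 0.0436) in limma, with means of 240.4 ± 133 in early and 848 ± 279 in late CCH (SD, n = 5 each). Both ligands of PD-1 were thus lower in early CCH, with early 2 the highest early tumour for each.

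LAG3, the gene of a receptor for MHC class II, was measured at 43.4, 66.2, 159.7, 145 and 64.4 in early tumours 1 to 5 and at 288, 390.4, 223, 282 and 380.2 in late tumours 1 to 5. The stages did not overlap, and the early tumours fell into a low trio (early 1, 2 and 5) and a higher pair (early 3 and 4). The low trio lay at 1.73 to 1.99 times background, on 34 to 41 recovered counts each. LAG3 had the smallest adjusted p-value of the 7 genes. Its log2 fold change was -1.85 (SE 0.37, 95% interval -2.66 to -1.03; BH adjusted p = 0.00452, BY adjusted p = 0.0326 in limma), with means of 95.7 ± 52.7 and 313 ± 70.9 (SD, n = 5 each).

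TIGIT, the gene of a receptor on T and natural killer cells, was measured at 20.1, 120.4, 305, 232 and 75.8 in early tumours 1 to 5 and at 879, 479.95, 399, 487 and 588 in late tumours 1 to 5. In early 1 it was below background, whereas the other 9 tumours were above it. The stages did not overlap, and the order of the early tumours (early 3, 4, 2, 5, 1 from the highest) was the order of CD3E. LAG3 had the same order. TIGIT had the largest log2 fold change of the members, -2.35, and also the largest error (SE 0.64, 95% interval -3.76 to -0.94). It passed BH (adjusted p = 0.0170) and missed BY (adjusted p = 0.122) in limma, with means of 151 ± 116 and 567 ± 187 (SD, n = 5 each). The log2 fold change was -2.17 with a background floor and -2.73 to -1.77 when single tumours were left out.

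CTLA4, the gene of the receptor that competes with CD28, was measured at 361, 390.1, 1347, 810.5 and 267 in early tumours 1 to 5. In late tumours 1 to 5 it was measured at 681, 1972, 1050.3, 1287 and 2369.9. The stages overlapped: early 3 was higher than late 1, late 3 and late 4, and early 4 was higher than late 1, while the other 3 early tumours were below every late one. The log2 fold change of -1.34 (SE 0.48, 95% interval -2.41 to -0.27) missed BH (adjusted p = 0.0521) in limma. It passed BH when early 3 was left out (-1.68, adjusted p = 0.0151), when late 1 was left out (-1.58, adjusted p = 0.0378) and without the pair early 3 and early 4 (-2.00, adjusted p = 0.00595). It also passed with a filter at a mean of at least 50 (adjusted p = 0.0472) and with extraction batch as a random block (-1.36, adjusted p = 0.0288), where the estimated correlation within batches was negative (-0.14) and the panel genes past BY and 2-fold rose from 85 to 118. With DV200 as a covariate the log2 fold change shrank to -0.57 (adjusted p = 0.628), and under quantile scaling to -0.82 (adjusted p = 0.173).

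HAVCR2, the gene of TIM-3, was measured at 531, 344, 934, 988 and 860.2 in early tumours 1 to 5 and at 478, 511, 538, 462 and 524 in late tumours 1 to 5. Early 3, 4 and 5 were above every late tumour, early 1 lay within the late range and early 2 below it. The late tumours were nearly level, with a fold range of 1.16 against 2.87 in early CCH. The log2 fold change was 0.44 (SE 0.28, 95% interval -0.19 to 1.06) and did not pass BH (adjusted p = 0.247) in limma. It passed BH without early 2 (0.68, adjusted p = 0.0255), and also when the tumours were rescaled to the geometric mean of their tested genes (0.83, adjusted p = 0.0410) or by quantiles (0.93, adjusted p = 0.0278), which moved the median of all tested genes from -0.18 to 0.21 for each scaling. The other 6 members kept a negative log2 fold change under both scalings.

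When each tumour was left out in turn, the 5 members past BH stayed past it in 10 of 10 fits. The BY and 2-fold criterion was less stable. LAG3 met it in 3 of 10 such fits (without early 3, early 4 or late 3) and PDCD1LG2 in 2 of 10 (without early 2 or early 3), while PDCD1 met it without early 3 and CD274 without early 1. Without the pair early 3 and early 4, 4 members met it, PDCD1, CTLA4, LAG3 and TIGIT, as did 104 of the 761 tested genes. These 4 are genes for which the pair held the highest early values, so that leaving it out widens their difference by construction. The log2 fold changes without the pair were -2.72 for PDCD1, -1.76 for CD274, -2.13 for PDCD1LG2, -2.41 for LAG3 and -3.23 for TIGIT, each past BH as before. For HAVCR2 the value fell to 0.11 without the pair (BH adjusted p = 0.795 in limma). With DV200 as a covariate, 0 of 7 members passed BH in limma, where 28 of the 761 tested genes passed as higher in late and 17 as higher in early CCH, and the BH adjusted p-values of those 5 genes were then 0.113 to 0.257, with log2 fold changes of -1.94 to -1.46. In that fit 197 of 761 tested genes had an unadjusted p under 0.05. The DV200 of late 5 in the labels differs from that in the study's own sample list, and the label was used.

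**Figure D2:**
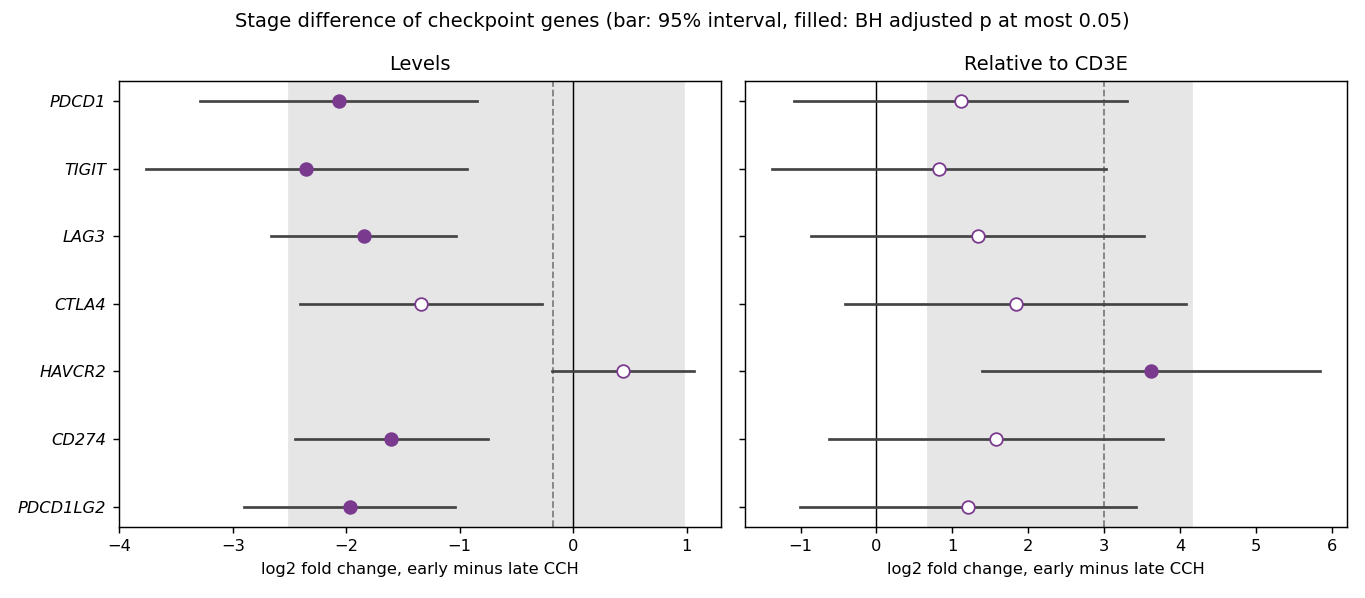
Log2 fold change, early minus late CCH (horizontal axis), of the 7 checkpoint genes for levels (left) and relative to CD3E (right), with bars for the 95% interval from limma, filled points for a BH adjusted p of at most 0.05, and the median (dashed line) and the 5th to 95th percentile (grey) of all tested panel genes. All 7 levels lie inside the grey range of -2.51 to 0.98, with 5 filled points to the left of 0, and relative to CD3E all 7 points lie right of 0 but only HAVCR2 (3.62) is filled and only it exceeds the panel median of 3.00.

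Markers of T cells moved with these genes. All 13 T cell genes tested were lower in early CCH at BH (27.3% of the panel), 4 of them also at BY and 2-fold (11.2% of the panel), with a median log2 fold change of -2.88, and their summed level was 715 to 13234 normalized counts in early and 19667 to 34376 in late CCH. In early CCH 10 of the 13 were above background in every tumour, and in late CCH all 13 were. The largest changes were those of CD6 (-3.23), CD3E (-3.18), TRBC (-3.14) and CD8A (-3.09). In bulk tissue, fewer cells of a type and less RNA per cell cannot be told apart.

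The checkpoint genes were also expressed relative to CD3E, as the difference of the log2 values in the same tumour. The sign of the log2 fold change then turned for 6 members and stayed positive for HAVCR2, with values from 0.83 for TIGIT to 3.62 for HAVCR2. This was shared by the panel, since 99.1% of the 760 genes tested were above 0 with a median of 3.00, and 71.1% passed BH in that direction. Against this background 1 of 7 members, HAVCR2, passed BH as higher in early CCH. For higher in late CCH the count was 0 of 7 against 0% of the panel, and for the BY and 2-fold criterion 0 of 7 against 10.7%. The median of the members was 1.33, lower than that of the panel.

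These adjusted p-values are not reliable. Every gene in this fit carries the spread of CD3E, and limma took that common spread as known from all genes together (its prior degrees of freedom were infinite). Taking it as known makes p-values too small, as for HAVCR2 below. The pooled spread can also make them too large for members that vary less, such as TIGIT. Its SD relative to CD3E was 0.99 in early and 0.31 in late CCH (log2 scale). With each gene's own variance, an alternative chosen after the data were seen, 0 of 760 genes passed BH, 495 had an unadjusted p under 0.05, and HAVCR2 had a BH adjusted p of 0.0553. An exact two-sided permutation test of each member over the 10 tumours, 7 tests without adjustment, gave 0.00794 for HAVCR2, the smallest p that 5 against 5 tumours allow, and 0.0397 for CTLA4. That smallest p needs early tumours that all lie above the late ones, which was so for 38.8% of the panel genes relative to CD3E, a gene whose own levels did not overlap between the stages. The exact permutation p-values of the other 5 ran from 0.119 to 0.198.

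**Figure D3:**
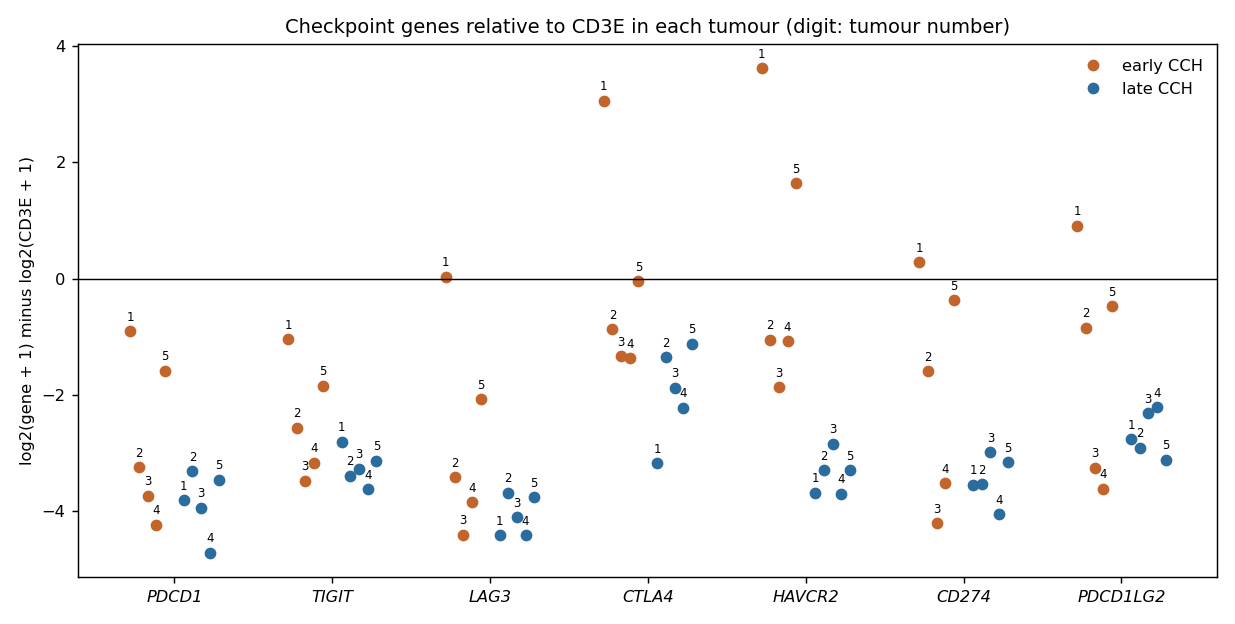
Difference between log2(gene + 1) and log2(CD3E + 1) of each checkpoint gene in each early (orange) and late (blue) CCH tumour, with the tumour number above each point. Early 1, 2 and 5 lie above every late tumour for all 7 genes, whereas early 3 and early 4 lie among or below the late tumours for every gene but HAVCR2.

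HAVCR2 was measured at 27.5 to 1255 normalized counts per 100 of CD3E in early CCH (median 48.1) and at 7.68 to 14.0 in late CCH (median 10.2). All 5 early tumours were above all late ones, and early 1, where CD3E was lowest, set the upper end. CD3E in early 1 rested on 40 recovered counts, 1.94 times its background. The ratios of early 1 to CD3E are therefore uncertain for every gene. Its log2 fold change relative to CD3E was 3.62 (SE 1.14, 95% interval 1.39 to 5.85), with a BH adjusted p of 0.00834 and a BY adjusted p of 0.0601 in limma. The interval and both p-values rest on the pooled spread described above. Leaving out each tumour in turn gave log2 fold changes of 2.77 to 4.14. It did not pass with DV200 as a covariate (2.63, adjusted p = 0.545) or with the RNA extraction batch as a random block (3.37, adjusted p = 0.285). Nor did it pass with the leukocyte gene PTPRC as the reference (0.76).

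CTLA4 per 100 of CD3E was 38.8 to 852 in early CCH (median 54.5) and 11.1 to 45.9 in late CCH (median 27.3). Early 1, 2 and 5 were above every late tumour and early 3 and 4 were within the late range. The log2 fold change was 1.84 (95% interval -0.41 to 4.08) and missed BH (adjusted p = 0.134) in limma.

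TIGIT was measured at 8.96 to 47.5 per 100 of CD3E in early CCH (median 16.8) and at 8.10 to 14.3 in late CCH (median 10.4). The SD of its log2 value relative to CD3E was 0.99 among the early tumours, the lowest of the 7 genes, against 2.30 for HAVCR2, the highest, but TIGIT in early 1 was below background, so that its ratio there is not a measured one and the SD that includes it is uncertain. The log2 fold change was 0.83 (BH adjusted p = 0.493 in limma). The lower end of the early values came from early 3 and the upper end from early 1.

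PDCD1 and LAG3 lay between these. PDCD1 was measured at 5.28 to 52.5 per 100 of CD3E in early and 3.80 to 10.04 in late CCH, and LAG3 at 4.70 to 102 and 4.69 to 7.77. Their log2 fold changes relative to CD3E of 1.11 and 1.33 did not pass BH (adjusted p = 0.353 and 0.265 in limma). The ligands CD274 (5.40 to 122 in early and 6.03 to 12.6 in late CCH) and PDCD1LG2 (8.12 to 190 and 11.5 to 21.6) did not pass either, with log2 fold changes of 1.57 and 1.21 (BH adjusted p = 0.189 and 0.317 in limma). The 95% intervals on the log2 scale were -1.08 to 3.30 for PDCD1, -0.86 to 3.53 for LAG3, -0.62 to 3.77 for CD274 and -1.01 to 3.42 for PDCD1LG2, so that each held both directions. CD274 passed BH when early 3 was left out (2.16, adjusted p = 0.0496).

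**Figure D4:**
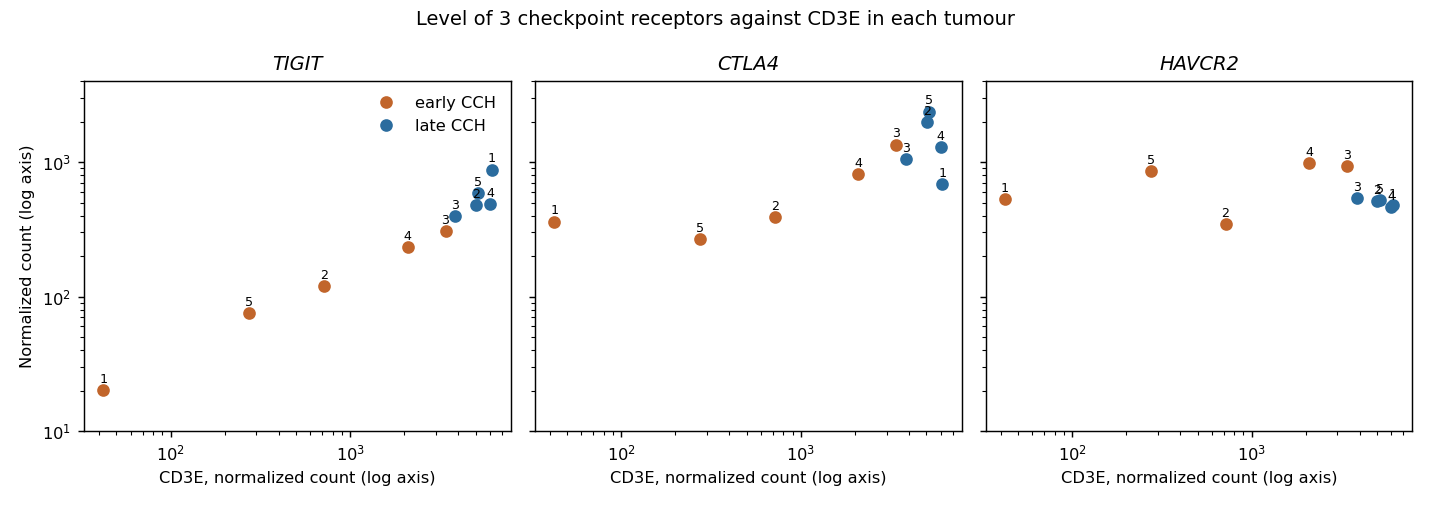
Normalized counts of TIGIT, CTLA4 and HAVCR2 (vertical log axis) against CD3E (horizontal log axis) in each early (orange) and late (blue) CCH tumour. TIGIT follows the order of CD3E among the early tumours, CTLA4 is at 361 in early 1 where CD3E is at 42.3, and HAVCR2 is at 344 to 988 in early CCH over the whole range of CD3E.

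The result depended on the reference. With the mean of CD3D, CD3G, CD5 and TRAC in place of CD3E, 1 member (HAVCR2, log2 fold change 3.27) met BY and 2-fold, as did 430 of 757 panel genes. With PTPRC, the gene of the pan-leukocyte antigen CD45, the log2 fold changes of PDCD1, CD274, PDCD1LG2, CTLA4, LAG3 and TIGIT turned negative, and 4 members passed BH as higher in late CCH, as did 114 of the 760 panel genes. HAVCR2 fell to 0.76 with PTPRC and did not pass BH. Without the pair early 3 and early 4, 6 of 7 members passed BH as higher in early CCH relative to CD3E, all but TIGIT, where 712 of the 760 panel genes passed BH as well and the panel median was 4.46. The pair left out is the one with the highest CD3E among the early tumours, so that the ratios to CD3E of all genes in early CCH move with this choice. Without early 1, which has the lowest CD3E, the panel median fell to 2.10, and the log2 fold changes relative to CD3E were 0.65 for PDCD1, 1.03 for CD274, 0.62 for PDCD1LG2, 1.04 for CTLA4, 0.64 for LAG3 and 0.48 for TIGIT, none of them past BH.

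Among the partners of these receptors, 8 of 14 listed genes were on the panel, and 2 were lower and 1 higher in early CCH at BH, near the panel shares of 27.3% and 8.41%, with a median log2 fold change of -0.33. CD28, the costimulatory receptor that shares its ligands with CTLA-4, was lower in early CCH (139 ± 118 against 636 ± 104, SD, n = 5 each; log2 fold change -2.75, BH adjusted p = 0.00974 in limma). CD96, another receptor for PVR, was lower as well (-2.04, BH adjusted p = 0.0214). CD86, a ligand of CD28 and CTLA-4 on antigen-presenting cells, was higher in early CCH (4566 ± 799 against 2332 ± 345, SD, n = 5 each; 0.97, BH adjusted p = 0.00224). LGALS3, which encodes the lectin galectin-3, had a log2 fold change of 0.67 that did not pass.

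Of 11 tested genes for other co-inhibitory receptors and ligands, 3 were lower and 0 higher in early CCH at BH, with a median of -0.26. The lower share was that of the panel (27.3%). LAIR1, an inhibitory collagen receptor of leukocytes, was lower in early CCH (124 ± 27.9 against 587 ± 157, SD, n = 5 each; log2 fold change -2.21, BH adjusted p = 0.000660 in limma) and was the one gene of this list past BY and 2-fold. CD160 was lower with -1.66 (BH adjusted p = 0.0469), above background in 3 of 5 early tumours. TNFRSF14, the ligand of CD160 and BTLA, was lower with -0.58 (BH adjusted p = 0.0394), a gene outside the 4 largest changes that was named after its values were seen. CD244 and KLRG1, with 0.99 and 0.90, did not pass.

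Interferon gamma is the inducer of PD-L1 named above. Of 8 tested genes of its axis, 4 were lower and 1 higher in early CCH at BH, where the panel shares were 27.3% and 8.41%, with a median of -0.84. IRF1, a transcription factor induced by interferon gamma, was lower with -1.70 (1038 ± 413 against 3179 ± 485, SD, n = 5 each; BH adjusted p = 0.00224 in limma), and IFNGR1, a receptor chain, was higher with 0.98 (BH adjusted p = 0.00325). IFNG itself had a log2 fold change of -1.66 and the chemokine gene CXCL10 one of -2.36, neither of which passed BH (adjusted p = 0.0599 and 0.156).

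Of 15 genes linked to the exhausted or regulatory state of T cells, 6 were lower and 2 higher in early CCH at BH, against the same panel shares of 27.3% and 8.41%, with a median of -0.67. The transcription factor genes EOMES (-3.32, BH adjusted p = 0.00412 in limma), TCF7 (-2.56, adjusted p = 0.0169) and PRDM1 (-1.88, adjusted p = 0.00712) were lower, and CXCL13, a chemokine of B cell follicles, had -2.52 without passing. The 2 genes that were higher in early CCH were IL10 (1.41) and ENTPD1 (0.81), named after their values were seen. FOXP3, the defining factor of regulatory T cells, was above background in 0 of 5 early and 4 of 5 late tumours, and its values of 22.3 ± 6.66 and 25.8 ± 9.07 (SD, n = 5 each) were too close to background for a comparison. TOX, a factor of exhausted T cells, had a log2 fold change of -0.05.

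The counts for genes of other cell types that a skin tumour can hold are to be read against the panel shares given above, 27.3% lower and 8.41% higher in early CCH at BH under the authors' scaling. The part of these cell types in the results was not tested. For B cells, 4 of 6 genes were lower in early CCH at BH (median -1.97), with summed levels of 1347 to 2080.5 normalized counts in early and 1445 to 7326 in late CCH, and CD79B was above background in 0 of 5 early tumours. For natural killer cells 2 of 5 were lower (median -0.47, sums of 175 to 697 and 464 to 1852). Of 8 macrophage genes 2 were lower (median -0.39, sums of 3461 to 7933 and 4731 to 8864). Of 12 Langerhans and dendritic cell genes 3 were lower and 2 higher (median 0.08, sums of 4832 to 8979 and 8041 to 9385). The higher ones were FLT3 (2.49) and FCER1A (2.44), the receptors for a dendritic cell growth factor and for IgE, and the lower ones were XCR1 (-1.60), IRF8 (-1.43) and CD83 (-1.30). CD207, the gene of langerin that defines Langerhans cells, was above background in 1 early and 1 late tumour. Of 5 keratinocyte genes 0 passed BH in limma (median 0.30, sums of 584 to 5895 and 813 to 3805), and of 10 genes of endothelium, mast cells and fibroblasts 1 was lower and 2 higher (median -0.21, sums of 6044 to 38483 and 10249.6 to 32235).

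The panel genes most like each member were found as those with the smallest root mean square difference of log2 values over the 10 tumours, each gene centred on its own mean. For PDCD1 they were FASLG, the ligand of a death receptor, with 0.41, CD27, a costimulatory receptor, with 0.46, and LAG3 with 0.48, where the median over all tested genes was 1.33. For TIGIT they were LOC475935 (0.23), CD27 (0.30) and CD28 (0.31), against a median of 1.52. For LAG3 they were PLCG1 (0.31), SLAMF7 (0.33) and NLRC5 (0.34), against 1.10, and for CTLA4 they included LAG3 (0.50) and CX3CL1 (0.51), against 1.09.

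The ligands had other neighbours. The genes most like CD274 were ITGA4 (0.33), TRAF3 (0.34) and IRF1 (0.37), with a panel median of 1.02, and those most like PDCD1LG2 were IL21R (0.35), CSF1 (0.41) and GBP5 (0.46), with a panel median of 1.18. HAVCR2 was most like GATA3 (0.26), DLA-DMB (0.27) and MGMT (0.29), with a panel median of 0.73, and these small distances go with its own small SD of 0.50 over the tumours. Among the members themselves, PDCD1 and LAG3 were the closest pair (0.48) and HAVCR2 and TIGIT the most distant (1.67). All these distances include the difference between the stages, and the tumours of a stage share their cartridge.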

How the data were processed

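Total RNA of 10 FFPE tumours, 5 early and 5 late CCH by their labels, was hybridised by the authors to the nCounter Canine IO Panel. The deposited values are a normalized signal on a linear scale, scaled by the authors in nSolver to positive controls and then to housekeeping genes, and are called normalized counts here. Dividing by the worth of 1 barcode count, the step common to a tumour's values (within 0.0051), gave whole numbers for at least 99.4% of genes. These recovered counts served for depth and background only. The stages were compared by limma 3.58.1 under R 4.3.3 (lmFit, then eBayes with trend) on log2(normalized count + 1), without covariates and with late CCH as baseline, for the 761 genes with a mean of at least 20. All 7 checkpoint genes passed this filter. P-values were adjusted over all tested genes. The fit was repeated after subtraction of the log2 value of CD3E. Both fits were run on simulated data, the second with a reference held constant over the tumours. The spread of CD3E between tumours was thus not simulated.

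The checkpoint genes and all gene lists were chosen with earlier results of these data known. Named genes are the members, CD3E, at most the 4 largest changes of a list and the 3 genes most like each member (1 of those for CTLA4 is not reported here), while TNFRSF14, IL10, ENTPD1, FOXP3, TOX, CD207, CD83 and IRF8 were named after their values were seen. Alternatives covered the pseudocount, filter, background floor, scaling, variance model, covariates, sex, extraction batch, the reference gene and leaving out tumours. The extraction batch was not in the labels and was inferred by matching each tumour's breed, and its age and sex where stated (not for early 3), to the study's sample list, with 3 batches in early and 2 in late CCH, none in both. The probes were designed on another assembly than the RefSeq gene table, so no coordinates or sequences are given. P-values measure the spread between these tumours. Figures were drawn with matplotlib 3.10.9.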

Additional observations from a re-analysis of the deposited data

How the results depend on the processing

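For levels, the 7 members kept the sign of their log2 fold change under all 23 alternatives. The count of members past BY and 2-fold (2) was 1 with a background floor, 0 without variance moderation (chosen after seeing the data), with DV200 as a covariate, in male dogs only, with the replicate number as a block, and under geometric mean or quantile scaling, 4 without early 3 and early 4 (also chosen after seeing the data), and 0 to 3 when single tumours were left out (3 without early 3). Members past BH and higher in late CCH numbered 0 with DV200. Members past BH and higher in early CCH numbered 1 under either scaling and 0 to 1 without single tumours. The 85 panel genes past BY and 2-fold became 44 without moderation, 0 with DV200 and in male dogs, 1 with the replicate block and 39 to 98 without single tumours (39 without late 1, 41 without late 4, 47 without early 5, 48 without late 2 and 52 without late 5). The 272 past BH (208 higher in late and 64 in early CCH) became 45 with DV200 and 133 in male dogs, and their main direction turned under geometric mean scaling (151 and 194) and quantile scaling (144 and 180).

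Relative to CD3E, 1 member passed BY and 2-fold without an intensity trend and with the 4 other T cell genes as reference, 4 did without early 3 and early 4, and 0 to 1 without single tumours. Members past BH and higher in early CCH numbered 0 without moderation, with DV200, with extraction batch as a random block and with PTPRC as reference, 6 without early 3 and early 4, and 1 to 2 without single tumours. With PTPRC 4 members were higher in late CCH, and the reversed values were -1.75 (PDCD1), -1.28 (CD274), -1.65 (PDCD1LG2), -1.02 (CTLA4), -1.52 (LAG3) and -2.03 (TIGIT). The 81 panel genes past BY and 2-fold became 22 with the floor, 160 without trend, 0 without moderation, with DV200 and with extraction batch, 13 in male dogs, 12 with the replicate block, 679 without early 3 and early 4, 430 with the other T cell genes, 33 with PTPRC and 3 to 536 without single tumours (3 without early 5, 5 without late 4, 384 without early 4, 536 without early 3). The 540 past BH became 0 without moderation and with DV200, 1 with extraction batch, 204 with PTPRC and 272 to 644 without single tumours (272 without early 5). The causes of these changes were not tested.

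Replicate numbers did not pair the tumours, since deviations of same-numbered tumours correlated at -0.20 to 0.16. With 5 tumours per stage, and with RNA quality, cartridge and depth all differing with stage, the number of tumours limits every comparison, and low values such as PDCD1 and TIGIT in early 1 lie at background.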

Other observations

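Early 1 had the lowest CD3E of all tumours (42.3 normalized counts), and PDCD1, CD274, PDCD1LG2, LAG3 and TIGIT were lowest there of the early tumours. CTLA4 (361) and HAVCR2 (531) were not the lowest there, at 852 and 1255 per 100 of CD3E. Both ratios rest on 40 recovered counts of CD3E in early 1, near its background. Early 3 was the highest early tumour for 4 of the 7 members.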
